A study of Mus musculus with 6 samples.

Results

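The genes described here are 27 genes of cholesterol synthesis, sterol esterification and sterol transfer, together with the genes that control the transcription factor SREBP2. They were taken by symbol from a list of the genes' known roles, which was drawn up with earlier results of these data known. All 27 were among the 17119 gene symbols of the count table, and all 27 passed the filter on low counts that left 12706 genes for testing. RNA had been sequenced from 6 samples of liver tissue of mice kept for 12 weeks on HFHCD, a diet rich in fat and cholesterol that is used to bring on fatty liver with inflammation. The 3 heterozygous samples (Hete) came from Clec4f-iCre;Cebpbfl/+ mice, in which the recombinase iCre removes 1 copy of Cebpb, the gene of the transcription factor C/EBPβ. The 3 wild-type samples (WT) came from Clec4f-iCre;Cebpb+/+ littermates, which carry the same iCre and keep both copies. Clec4f is active in Kupffer cells, the macrophages that reside in liver, so the iCre it drives is meant to spare hepatocytes, which make up most of the RNA measured here. The labels state neither sex nor age, and all 6 samples were on the 1 diet. Each sample is called a liver below, although the labels do not tie each to its own animal.

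Cholesterol is built from acetyl-CoA through mevalonate, isoprenoid units, squalene and lanosterol, and in the liver this work is done mostly by hepatocytes. SREBP2, encoded by Srebf2, turns on nearly all genes of the route. When sterols are scarce in the endoplasmic reticulum, the escort protein SCAP carries SREBP2 to the Golgi, where it is cut and released, and when sterols are plentiful the INSIG proteins hold SCAP back. Cholesterol taken up with food is known to reduce this release in liver, and excess cholesterol is stored as esters made by the SOAT enzymes.

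Library totals were 17149924, 16895322 and 17008597 counts in Hete replicates 1 to 3 and 17750755, 17665622 and 17673848 counts in WT replicates 1 to 3. Levels are in CPM, counts scaled to a common library size with TMM factors, and log2 fold changes are Hete over WT with their SE. Hepatocyte markers were abundant in every library, with sums of 104055 to 131863 CPM over 8 genes in Hete livers and 94902 to 137521 CPM in WT livers. Cebpb RNA of the whole liver measured 204, 498 and 269 CPM in Hete livers and 506, 308 and 340.4 CPM in WT livers, and the groups overlapped (log2 fold change −0.25 ± 0.37, edgeR adjusted p = 0.864). A list of 12 macrophage and monocyte markers summed to 419 to 513 CPM in Hete livers, against 917 to 1495 CPM in WT livers. Hete and WT livers were fully apart for each of these 12 markers, as for 11.3% of all tested genes in this direction, and none was at 0 in any library. Of the 12, 8 passed an edgeR adjusted p of 0.05 as lower in Hete livers, against 0.559% of all tested genes. The 15 acute phase genes, most of which hepatocytes express in inflammation, stood apart in WT replicate 1, with a sum of 54174 CPM, against 17968 to 27823 CPM in Hete livers and 21421 and 27661 CPM in WT replicates 2 and 3.

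The promoters of a few of these genes are shown because SREBP2 acts there together with the factors NF-Y and Sp1, which bind the CCAAT box and the GC box. RefSeq promoter windows, from 250 bases before to 50 bases after an annotated start on build GRCm38.p6, were found for 22 of the 27 genes. Fdps, Fdft1, Sqle, Stard4 and Soat2 had no window, so their promoters were not searched. The windows below are those of Hmgcs1, Insig1 and Nsdhl, whose RNA varied widely between livers, of Mvk, whose window holds the letters CCAAT 5 times, and of Soat1, which had the smallest p-value of the 27. Each is written 5′ to 3′ on the strand of its gene, and capitals mark CCAAT on either strand and the sterol response element core TCACNCCAC.
Hmgcs1, chr13:119690101-119690400, plus strand: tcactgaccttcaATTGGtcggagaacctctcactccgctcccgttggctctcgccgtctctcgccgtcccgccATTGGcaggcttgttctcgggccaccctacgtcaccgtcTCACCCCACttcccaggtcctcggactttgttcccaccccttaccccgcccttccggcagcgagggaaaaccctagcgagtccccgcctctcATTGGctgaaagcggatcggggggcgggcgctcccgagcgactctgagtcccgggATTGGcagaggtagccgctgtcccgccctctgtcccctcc
Insig1, chr5:28071162-28071461, plus strand: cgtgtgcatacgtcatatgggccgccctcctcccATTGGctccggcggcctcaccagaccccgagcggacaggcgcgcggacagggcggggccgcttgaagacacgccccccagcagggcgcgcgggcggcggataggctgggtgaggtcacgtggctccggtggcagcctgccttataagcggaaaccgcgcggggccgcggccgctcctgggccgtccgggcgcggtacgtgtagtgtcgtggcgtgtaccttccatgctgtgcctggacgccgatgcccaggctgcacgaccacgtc
Nsdhl, chrX:72918271-72918570, plus strand: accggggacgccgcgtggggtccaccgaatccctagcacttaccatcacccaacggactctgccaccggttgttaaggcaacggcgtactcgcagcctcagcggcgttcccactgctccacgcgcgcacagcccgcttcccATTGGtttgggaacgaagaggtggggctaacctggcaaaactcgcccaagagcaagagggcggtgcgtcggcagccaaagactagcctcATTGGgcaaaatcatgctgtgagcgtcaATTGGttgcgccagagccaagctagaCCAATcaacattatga
Mvk, chr5:114444019-114444318, plus strand: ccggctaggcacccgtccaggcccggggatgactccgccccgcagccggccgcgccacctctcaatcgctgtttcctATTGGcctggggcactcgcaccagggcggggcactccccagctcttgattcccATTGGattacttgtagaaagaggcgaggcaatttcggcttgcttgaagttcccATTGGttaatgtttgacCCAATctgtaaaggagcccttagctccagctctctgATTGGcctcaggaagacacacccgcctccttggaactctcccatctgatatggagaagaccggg
Soat1, chr1:156474279-156474578, minus strand: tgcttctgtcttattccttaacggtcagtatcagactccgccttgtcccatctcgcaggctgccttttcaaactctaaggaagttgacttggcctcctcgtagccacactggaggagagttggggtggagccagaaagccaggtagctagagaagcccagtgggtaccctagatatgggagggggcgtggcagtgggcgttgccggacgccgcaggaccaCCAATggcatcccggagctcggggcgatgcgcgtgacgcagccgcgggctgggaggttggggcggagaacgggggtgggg
The core TCACNCCAC was searched on both strands and did not overlap a CCAAT box. It was present in the Hmgcs1 window, starting 137 bases before the annotated start, and in no other of the 22 genes, and 1.42% of the 10192 tested genes with a window held it. CCAAT was present in a window of 20 of the 22 genes, which is 90.9%, against 42.8% of tested genes. The GC box GGGCGG was present in 20 of the 22, against 66.6% of tested genes. The letters TTGCNNAA, an 8-letter form of a C/EBP site, were present in 2 of the 22 genes (9.09%), against 10.6% of tested genes. An E-box, CACGTG, was present in 5 of the 22 genes (22.7%), against 11.6% of tested genes. A match of letters is not a measured binding site, and a missing match says only that these letters are not in the window.

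The comparison of Hete with WT livers asks how a Cebpb copy removed from Kupffer cells is reflected, on this diet, in the sterol genes of the whole liver. None of the 27 genes passed an edgeR adjusted p of 0.05 in either direction, while over all tested genes 0.559% passed as lower and 0.0236% as higher in Hete livers. Soat1, the esterifying enzyme of macrophages, and Sqle, the squalene epoxidase, had the largest differences, and both were lower in Hete livers. The smallest adjusted p of the 27 was 0.0561, that of Soat1. At an unadjusted edgeR p under 0.05 there were 3 lower genes (Soat1, Sqle and Dhcr7, 11.1% of the list, against 9% of all tested genes) and 0 higher genes (against 4.2%). Hete and WT livers were fully apart for 4 lower genes, Mvk, Sqle, Dhcr7 and Soat1 (14.8%, against 11.3% of all tested genes), and for 1 higher gene, Insig2 (3.7%, against 7.05%). These shares lay near those of all genes. The median log2 fold change was −0.08 over the 27 genes and −0.13 over the 20 synthesis enzymes, against 0.0048 over all tested genes. Fold changes were below 0 for 16 of the 27 genes and above 0 for 11.

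**Figure D1:**
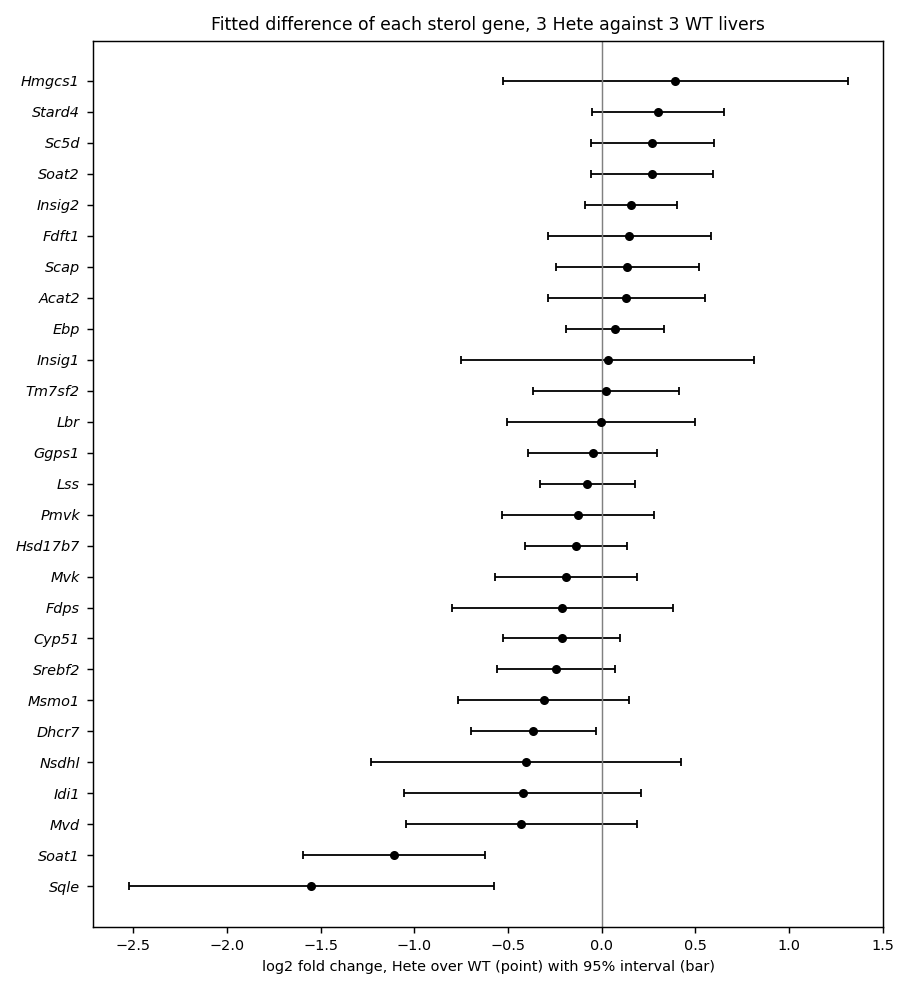
Log2 fold change of each of the 27 sterol genes, Hete over WT, from the edgeR fit (points) with the 95% interval (bars), 3 libraries per group. The intervals of Soat1, Sqle and Dhcr7 lie below 0, and those of the other genes include 0.

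The sterol genes varied between livers of 1 group in a shared order. Within the Hete livers, replicate 3 was the highest for 20 of the 27 genes and replicate 2 the lowest for 19, whereas these libraries were highest and lowest for 35.8% and 36% of all tested genes. Within the WT livers, replicate 1 was the lowest for 22 of the 27 genes, against 42.3% of all tested genes, and replicates 2 and 3 were the highest for 14 and 12. The 20 synthesis enzymes summed to 981, 827 and 1077 CPM in Hete livers and to 767, 969 and 981 CPM in WT livers. The lowest sum was thus in WT replicate 1 and the highest in Hete replicate 3. Ebp and Sc5d, at 214 and 212 CPM in the former and 251 and 323 CPM in the latter, weigh most in these sums. In mean deviation of log2 CPM from the all-library mean, Hete replicate 2 was lowest (−0.30) and WT replicate 2 highest (0.24). Of all libraries, Hete replicate 2 was lowest for 11 of the 20 enzymes, and Hete replicate 1 and WT replicate 1 for 4 each. Hete replicate 3 was highest for 9 and WT replicate 2 for 8. The ratio of the highest to the lowest liver of a group had a median of 1.39 in Hete and 1.42 in WT livers over the 27 genes, against 1.29 in each group over all tested genes.

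**Figure D2:**
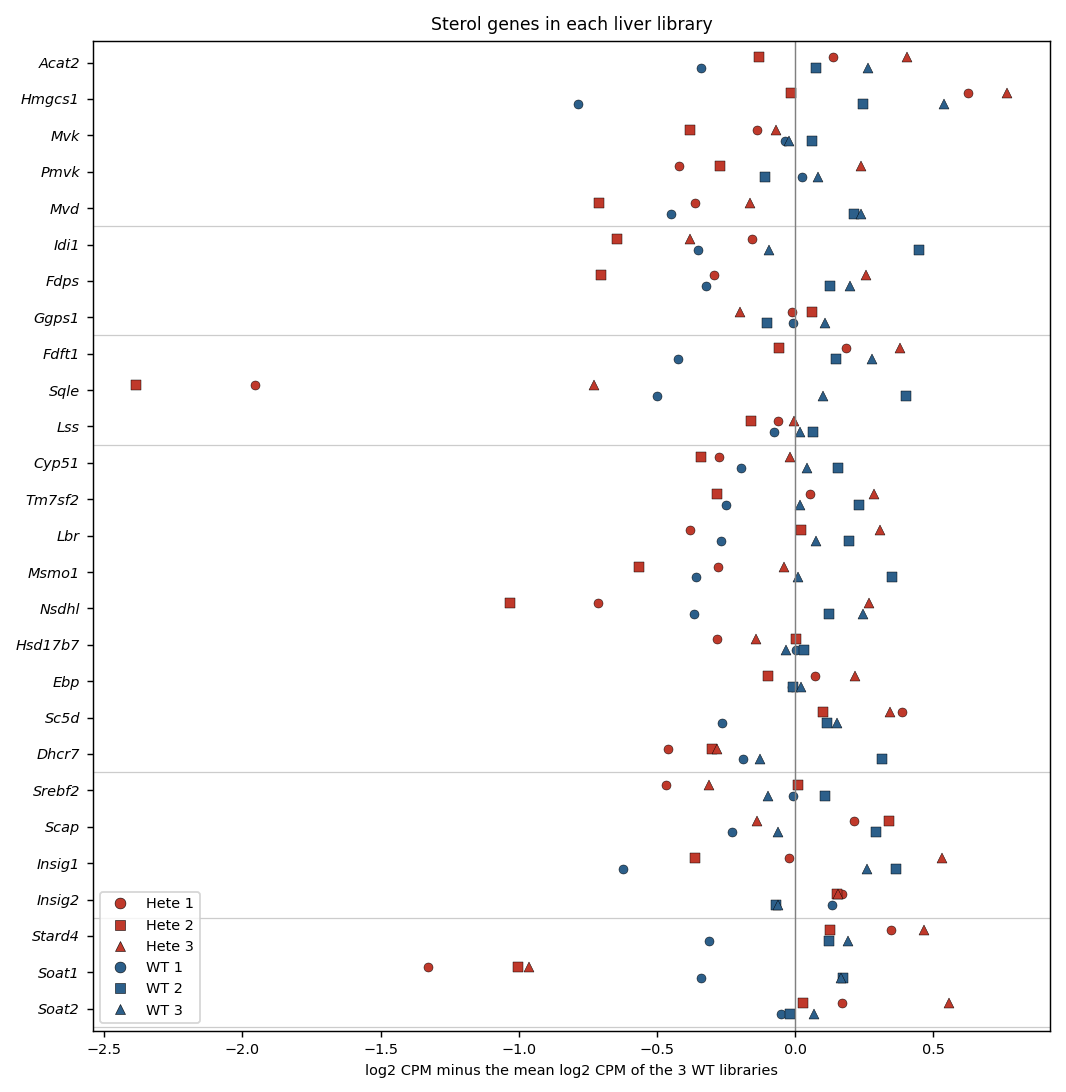
Log2 CPM of the 27 sterol genes in each library, minus the mean log2 CPM of the 3 WT libraries, ordered by role (grey lines part the roles, red Hete, blue WT, shapes give the replicate). Red triangles (Hete replicate 3) lie to the right of the other red points for 20 genes, blue circles (WT replicate 1) to the left of the other blue points for 22, and Sqle and Soat1 lie furthest to the left in Hete livers.

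Of the first 5 enzymes of the route, 2 had fold changes above 0 and 3 below 0. Hmgcs1 makes HMG-CoA, the substrate from which mevalonate is formed. It measured 110.4, 70.9 and 122 CPM in Hete livers, against 41.5, 85.0 and 104 CPM in WT livers. WT replicate 1 was the lowest liver, and the other values of both groups overlapped. The log2 fold change was 0.39 ± 0.37, with a 95% interval of −0.52 to 1.31 and an edgeR adjusted p of 0.761. It was 0.12 without WT replicate 1 and 0.67 without WT replicate 3. Acat2, the thiolase that joins acetyl-CoA units in the cytosol, measured 32.8, 27.3 and 39.6 CPM in Hete livers and 23.6, 31.5 and 35.9 CPM in WT livers. The groups overlapped, and reads that fit both Acat2 and its close copy Acat3 may have been left out or misplaced. Mvk, Pmvk and Mvd act one after another to turn mevalonate into isopentenyl diphosphate. Mvk, the mevalonate kinase, measured 7.16, 6.06 and 7.51 CPM in Hete livers, against 7.69, 8.22 and 7.77 CPM in WT livers. The groups did not overlap, but the nearest livers differed by little and the log2 fold change was −0.19 ± 0.17 (edgeR adjusted p = 0.726), or −0.10 without Hete replicate 2. Pmvk measured 12.6, 13.9 and 19.8 CPM in Hete livers and 17.1, 15.6 and 17.8 CPM in WT livers, with Hete replicate 3 the highest of all. Mvd, the decarboxylase, measured 2.85, 2.24 and 3.27 CPM in Hete livers and 2.68, 4.24 and 4.32 CPM in WT livers, where WT replicate 1 lay among the Hete values. Its log2 fold change was −0.43 ± 0.27, with a 95% interval of −1.04 to 0.19 and an edgeR adjusted p of 0.581.

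At the isoprenoid branch point, all 3 genes had negative fold changes with overlapping groups. Idi1, which isomerises isopentenyl diphosphate, measured 3.14, 2.24 and 2.70 CPM in Hete livers and 2.74, 4.79 and 3.28 CPM in WT livers. WT replicate 2 was the highest liver (log2 fold change −0.42 ± 0.28, edgeR adjusted p = 0.606), and without it the log2 fold change was −0.16. Fdps makes farnesyl diphosphate, from which squalene and prenyl groups are both drawn. It measured 33.3, 25.1 and 48.8 CPM in Hete livers and 32.6, 44.6 and 46.8 CPM in WT livers. Hete replicate 3 was the highest and Hete replicate 2 the lowest liver. Of the annotated exon length of Fdps, 26.7% overlaps Gm43738 on the same strand, a gene that was not tested. Ggps1 makes geranylgeranyl diphosphate for protein prenylation and lies off the direct route to cholesterol. It measured 9.67, 10.2 and 8.49 CPM in Hete livers and 9.70, 9.09 and 10.5 CPM in WT livers, and here Hete replicate 3 was the lowest liver.

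Of the 3 enzymes that form squalene and close it to lanosterol, 1 had a fold change above 0 and 2 below 0. Sqle, squalene epoxidase, a step known to limit the flow through the route, had the largest difference of the 27 genes. It measured 1.22, 0.909 and 2.87 CPM in Hete livers, from 21, 15 and 50 counts. The WT livers gave 3.35, 6.26 and 5.09 CPM, from 55, 115 and 93 counts. Every Hete liver lay below every WT liver, but Hete replicate 3 and WT replicate 1 lay close together. The means were 1.67 ± 1.05 and 4.90 ± 1.46 CPM in Hete and WT livers (SD, n = 3 each), which is 2.93-fold lower in Hete livers (log2 fold change −1.55 ± 0.43, 95% interval −2.52 to −0.58). The adjusted p was 0.142 in edgeR. Without Hete replicate 3 the log2 fold change was −2.19 and the edgeR adjusted p 0.0494, in a fit that called 0.829% of genes lower. DESeq2 gave −1.54 with an adjusted p of 0.0147, and called 3.56% of genes lower. Fdft1, which makes squalene, measured 38.4, 32.5 and 44.0 CPM in Hete livers and 25.2, 37.5 and 40.9 CPM in WT livers. Its sign was opposite to that of Sqle (log2 fold change 0.15 ± 0.19, edgeR adjusted p = 0.833), and 18.3% of its annotated exon length overlaps Ctsb on the other strand. Lss, the cyclase that forms lanosterol, measured much the same in both groups, with 20.1, 18.8 and 20.9 CPM in Hete livers and 19.9, 21.9 and 21.2 CPM in WT livers. The 95% interval of its log2 fold change ran from −0.33 to 0.18.

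Of the 9 genes that act between lanosterol and cholesterol, Dhcr7 was the one with an unadjusted p under 0.05. Dhcr7, whose enzyme makes the last reduction to cholesterol, measured 31.2, 34.9 and 35.3 CPM in Hete livers, against 37.8, 53.4 and 39.4 CPM in WT livers. The groups did not overlap, with WT replicate 2 well above the rest. The log2 fold change was −0.36 ± 0.15 with a 95% interval of −0.70 to −0.03, and the edgeR adjusted p was 0.327. Without WT replicate 2 the log2 fold change was −0.19. Cyp51, the demethylase that acts first on lanosterol, measured 22.4, 21.4 and 26.7 CPM in Hete livers and 23.7, 30.1 and 27.9 CPM in WT livers. Tm7sf2 and Lbr encode sterol reductases that can stand in for each other, and Lbr is also the lamin B receptor of the nuclear envelope. Tm7sf2 measured 44.9, 35.6 and 52.8 CPM in Hete livers and 36.4, 50.9 and 43.9 CPM in WT livers, and 12.1% of its annotated exon length overlaps Vps51 on the same strand. Lbr measured 5.59, 7.39 and 9.00 CPM in Hete livers and 6.04, 8.32 and 7.66 CPM in WT livers. Both pairs of groups overlapped nearly in full, with log2 fold changes of 0.02 ± 0.17 and −0.0038 ± 0.22.

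Msmo1, Nsdhl and Hsd17b7 remove the methyl groups of the sterol ring. Nsdhl varied most among them, with 10.9, 8.72 and 21.4 CPM in Hete livers and 13.8, 19.4 and 21.1 CPM in WT livers. Hete replicates 1 and 2 were lower than every WT liver and Hete replicate 3 was higher than every WT liver (log2 fold change −0.41 ± 0.35, edgeR adjusted p = 0.727). The log2 fold change was −0.89 without Hete replicate 3 and −0.16 without Hete replicate 2. Msmo1 measured 17.8, 14.5 and 20.9 CPM in Hete livers and 16.8, 27.5 and 21.7 CPM in WT livers. Hsd17b7 was tighter, with 16.5, 20.2 and 18.2 CPM in Hete livers and 20.2, 20.6 and 19.6 CPM in WT livers. Ebp, the sterol isomerase, and Sc5d, the desaturase that acts after it, were the most abundant synthesis enzymes per length. Ebp measured 227, 202 and 251 CPM in Hete livers, on both sides of the WT livers at 214, 214 and 219 CPM. Sc5d measured 333, 273 and 323 CPM in Hete livers and 212, 276 and 283 CPM in WT livers. Its log2 fold change of 0.27 ± 0.14 had an edgeR adjusted p of 0.496, and the groups overlapped through Hete replicate 2. It was 0.17 on the log2 scale without WT replicate 1.

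**Figure D3:**
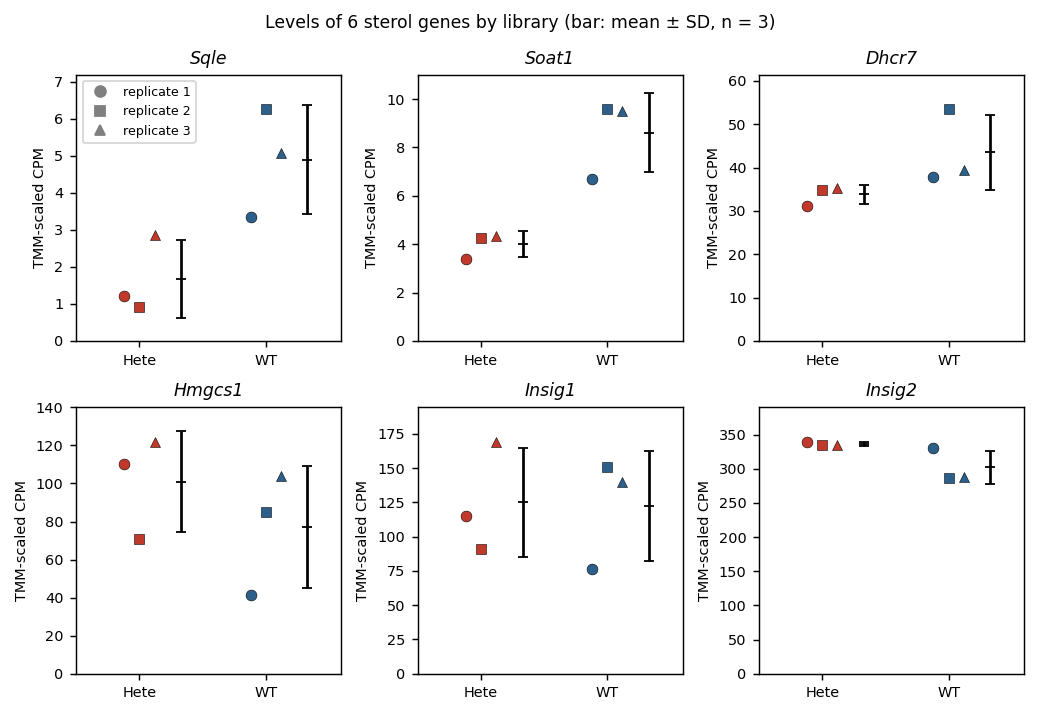
TMM-scaled CPM of 6 sterol genes in each of the 3 Hete and 3 WT libraries (points, shape by replicate) with the group mean and SD (bars). The groups do not overlap for Sqle, Soat1, Dhcr7 and Insig2, and they overlap for Hmgcs1 and Insig1.

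Of the 4 genes of SREBP2 control, 3 had fold changes above 0 and 1 below 0, and the intervals of all 4 included 0. Srebf2 measured 31.6, 43.9 and 35.1 CPM in Hete livers and 43.4, 47.0 and 40.7 CPM in WT livers, so that Hete replicate 2 lay within the WT range. The log2 fold change was −0.25 ± 0.14 (edgeR adjusted p = 0.524), and it ran from −0.39 without Hete replicate 2 to −0.13 without Hete replicate 1. Scap measured 148, 162 and 116 CPM in Hete livers and 109, 156 and 122 CPM in WT livers, with full overlap. Insig1, which is itself a target of SREBP2, followed the library order of the synthesis enzymes. It measured 115, 91.0 and 169 CPM in Hete livers and 76.1, 151 and 140.0 CPM in WT livers. The range within each group was far wider than the difference of the means, 125 ± 39.9 and 122 ± 40.3 CPM in Hete and WT livers (SD, n = 3 each). Insig2, which in mouse liver is known to have a transcript that does not depend on SREBP2 and is lowered by insulin, was the steadiest of the 27 genes in Hete livers. It measured 339, 335 and 335 CPM in Hete livers, against 330.4, 287 and 288 CPM in WT livers. All 3 Hete livers were higher than the WT livers by a small amount (log2 fold change 0.16 ± 0.11, edgeR adjusted p = 0.631).

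Soat1 and Soat2 both esterify cholesterol for storage. Soat1 is the form of macrophages and many other cells, and Soat2 that of hepatocytes and intestine. Soat1 measured 3.38, 4.24 and 4.36 CPM in Hete livers, from 58, 70 and 76 counts, against 6.71, 9.58 and 9.52 CPM in WT livers, from 110, 176 and 174 counts. Every Hete liver lay well below every WT liver. The means were 3.99 ± 0.535 and 8.60 ± 1.64 CPM in Hete and WT livers (SD, n = 3 each), 2.16-fold lower in Hete livers, with a log2 fold change of −1.11 ± 0.21 and a 95% interval of −1.59 to −0.62. The edgeR adjusted p was 0.0561. The gene passed in DESeq2 (log2 fold change −1.10, adjusted p = 0.00127) and with no filter on low counts in edgeR (−1.09, adjusted p = 0.0337, in a fit that called 1.14% of genes lower). The macrophage and monocyte markers, whose sums are given above, had a median log2 fold change of −1.26, and 7 Kupffer cell markers summed to 89.2 to 128 CPM in Hete livers, against 176 to 377 CPM in WT livers. Most of each Kupffer sum was Cd5l, at 83.4, 87.5 and 61.6 CPM in Hete livers and 145, 260 and 138 CPM in WT livers. Clec4f measured 4.31, 4.97 and 3.90 CPM in Hete livers and 48.6, 38.5 and 5.42 CPM in WT livers, so WT replicate 3 lay near the Hete livers. Folr2 had the opposite sign (log2 fold change 0.41 ± 0.42). The part of macrophages, monocytes and Kupffer cells in the Soat1 difference was not tested, and in whole liver fewer cells of a type and less RNA per cell cannot be told apart.

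Soat2 measured 69.0, 62.6 and 90.3 CPM in Hete livers and 59.2, 60.6 and 64.3 CPM in WT livers. Its groups overlapped, and its fold change had the opposite sign to that of Soat1 (log2 fold change 0.27 ± 0.14, edgeR adjusted p = 0.496). Without Hete replicate 3 its log2 fold change was 0.10. Per kilobase of annotated exon, Soat2 stood at 33.4 and Soat1 at 0.408 CPM per kilobase in Hete livers, and at 27.7 and 0.879 CPM per kilobase in WT livers. Stard4 encodes a carrier that moves cholesterol between membranes and is a target of SREBP2. It measured 34.6, 29.7 and 37.6 CPM in Hete livers and 21.9, 29.6 and 31.1 CPM in WT livers. The log2 fold change was 0.30 ± 0.16 with a 95% interval of −0.05 to 0.65, and the edgeR adjusted p was 0.475. It was 0.18 on the log2 scale without WT replicate 1.

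The levels of the 27 genes spanned a wide range when set per kilobase of annotated exon. Ebp had the highest mean, 98.0 and 93.4 CPM per kilobase in Hete and WT livers, followed by Insig2 with 96.8 and 86.9 and Sc5d with 63.6 and 52.7 CPM per kilobase. Sqle and Soat1 were the least abundant in both groups, with 0.300 and 0.408 CPM per kilobase in Hete livers and 0.884 and 0.879 CPM per kilobase in WT livers. By this measure the largest differences of the list rest on its least abundant RNAs. In CPM not set per length, Idi1 (3.61) and Mvd (3.75) had lower WT means than Sqle (4.90) and Soat1 (8.60). In Hete livers the mean of Sqle (1.67 CPM) was the lowest, and Idi1 (2.69) and Mvd (2.79) again lay below Soat1 (3.99). Mvk, Pmvk and Mvd, 3 enzymes of consecutive steps, stood at 2.58, 9.02 and 1.50 CPM per kilobase in Hete livers and at 2.95, 9.85 and 2.02 CPM per kilobase in WT livers. The annotated length joins all exons of all transcripts, so a gene with many rarely used exons can be set too low.

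Other genes around the route were described from lists fixed beside the 27, and none of their members passed an edgeR adjusted p of 0.05. Of 9 genes of SREBP processing and sterol-dependent degradation, such as the proteases Mbtps1 and Mbtps2, 6 had fold changes above 0 and 3 below 0, with a median log2 fold change of 0.07. Syvn1, a ubiquitin ligase of the endoplasmic reticulum, had the smallest p among them and measured 114, 111 and 109.7 CPM in Hete livers and 201, 104 and 149.6 CPM in WT livers, with overlap. Among 8 cofactors of sterol synthesis the median was 0.09, with 5 fold changes above and 3 below 0. Por, the reductase that passes electrons to Cyp51 and to squalene epoxidase, was the cofactor that stood apart, with 231, 311 and 310.1 CPM in Hete livers, against 605, 489 and 440.2 CPM in WT livers. Its groups did not overlap (log2 fold change −0.85 ± 0.17, edgeR adjusted p = 0.0561). It also serves the drug-metabolising cytochromes.

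Of 10 genes of lysosomal release and sterol transfer, 7 had fold changes above 0 and 3 below 0, with a median of 0.06. Npc2, a lysosomal cholesterol carrier, measured 59.1, 62.3 and 72.0 CPM in Hete livers and 83.0, 94.1 and 99.8 CPM in WT livers, without overlap (log2 fold change −0.52 ± 0.12, edgeR adjusted p = 0.0915). The 8 genes that use isoprenoids for dolichol, ubiquinone and protein prenylation had a median of −0.04, with 3 fold changes above and 5 below 0. Dhdds, an enzyme of dolichol synthesis, had the smallest p of these, with 25.3, 27.9 and 23.3 CPM in Hete livers and 34.3, 29.5 and 30.3 CPM in WT livers (log2 fold change −0.30 ± 0.12, edgeR adjusted p = 0.317). Among 10 genes of sterol export and bile acid synthesis the median was −0.0016, with 5 fold changes above and 5 below 0. Abcg5, which exports sterols into bile, stood at 404, 358 and 388 CPM in Hete livers and at 247, 278 and 278 CPM in WT livers, without overlap (log2 fold change 0.52 ± 0.11, edgeR adjusted p = 0.0733). Its partner in the same exporter, Abcg8, stood at 467, 431 and 402 CPM in Hete livers and at 266, 359 and 336 CPM in WT livers (log2 fold change 0.44 ± 0.14, edgeR adjusted p = 0.192). Abcg1, a sterol exporter prominent in macrophages, had the opposite sign, with 18.6, 14.1 and 13.6 CPM in Hete livers and 18.3, 26.0 and 22.0 CPM in WT livers (log2 fold change −0.52 ± 0.17, edgeR adjusted p = 0.221). The 11 genes of fatty acid synthesis had a median of −0.0040, with 5 fold changes above and 6 below 0. Srebf1, which encodes the related factor SREBP1, measured 749.7, 574 and 598 CPM in Hete livers and 296, 508 and 454 CPM in WT livers, without overlap (log2 fold change 0.61 ± 0.20, edgeR adjusted p = 0.224).

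Each list's level per library, set beside the library order of the synthesis enzymes, is given by the mean deviation of each list from its 6-library mean of log2 CPM. For the 20 synthesis enzymes it was −0.12, −0.30 and 0.16 in Hete livers and −0.17, 0.24 and 0.19 in WT livers. The fatty acid synthesis list gave 0.06, −0.21 and 0.19 in Hete livers and −0.38, 0.07 and 0.27 in WT livers. In both lists Hete replicate 2 and WT replicate 1 were the lowest of their groups. The 15 acute phase genes gave −0.75, −0.06 and −0.64 in Hete livers and 1.42, −0.16 and 0.20 in WT livers, so those 2 libraries were the highest of their groups here. Their median log2 fold change was −0.68, with all 15 below 0. Saa3, a serum amyloid A gene, measured 34.1, 13.3 and 34.6 CPM in Hete livers and 75.9, 44.0 and 69.9 CPM in WT livers, without overlap (log2 fold change −1.21 ± 0.41, edgeR adjusted p = 0.290). Unlike the list mean, Saa3 was lowest of all in Hete replicate 2. The 13 clock genes, which follow the time of day, gave −0.31, −0.25 and 0.03 in Hete livers and 0.08, 0.53 and −0.07 in WT livers, with a median log2 fold change of −0.17, 5 above and 8 below 0. This mean joins clock genes of both signs, with log2 fold changes from −3.06 (Ciart) to 1.31 (Npas2). Cry1, a repressor of the clock, measured 17.8, 20.1 and 11.1 CPM in Hete livers and 7.93, 7.67 and 12.5 CPM in WT livers (log2 fold change 0.80 ± 0.27, edgeR adjusted p = 0.233). Ciart measured 0.291, 1.64 and 1.43 CPM in Hete livers and 9.15, 17.2 and 1.86 CPM in WT livers, without overlap (edgeR adjusted p = 0.256). Npas2 measured 11.9, 10.5 and 6.25 CPM in Hete livers and 2.01, 2.01 and 7.44 CPM in WT livers, with overlap (edgeR adjusted p = 0.397). The 9 fasting response genes gave −0.04, 0.48 and −0.13 in Hete livers and 0.14, −0.47 and 0.02 in WT livers, with the highest values again in Hete replicate 2 and WT replicate 1. Their median log2 fold change was 0.17, with 5 above and 4 below 0. Fgf21, a liver hormone, measured 3.26, 4.91 and 3.44 CPM in Hete livers and 1.83, 1.90 and 3.01 CPM in WT livers, without overlap (log2 fold change 0.78 ± 0.29, edgeR adjusted p = 0.282). The part of inflammation, time of day or feeding in the sterol gene levels was not tested.

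**Figure D4:**
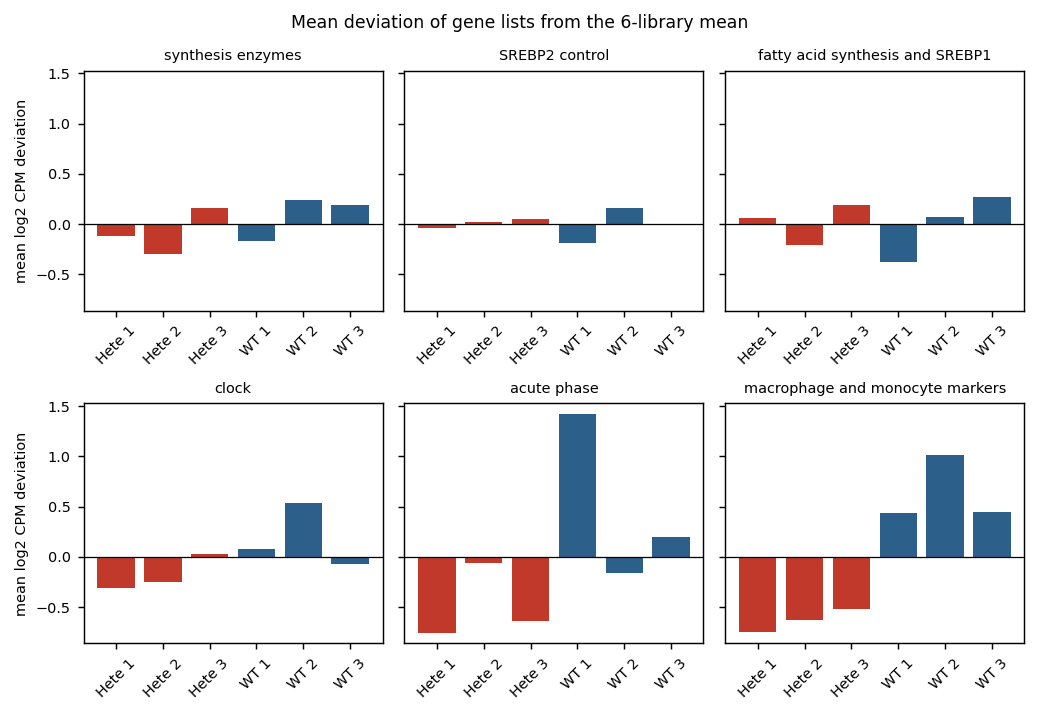
Mean deviation of log2 CPM from the 6-library mean for 6 gene lists in each library (red Hete, blue WT). The synthesis enzymes and the fatty acid synthesis genes are lowest within their groups in Hete replicate 2 and WT replicate 1, the acute phase genes are highest in WT replicate 1, and the macrophage markers part the groups.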

How the data were processed

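RNA of 6 samples of liver tissue, 500 ng each, was made into stranded mRNA libraries, as the labels' protocols state. The submitters' processing notes name build GRCm39, HTSeq 0.9.1, HISAT2 2.2.1.0 and Trimmomatic 0.36. For the annotation and strand setting, nothing is given in the sources used here, so reads of overlapping genes may have been left out or misplaced. The deposited values are raw read counts per gene symbol. Titles gave each sample's group and replicate number. In replicates 2 and 3 the genotype label counts the number in the driver's name upward, and the series design, which names Clec4f, was followed. Nothing ties each sample to its own animal, so whether the spread behind the p-values lies between animals is not known. That spread exceeded counting noise. Pairs of libraries of the same group differed with a chi-square per degree of freedom of 23.3 to 88.3.

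Genes were filtered (filterByExpr), scaled by TMM and tested across all genes with the edgeR 4.0.16 quasi-likelihood test (robust, no covariates) in R 4.3.3, with Benjamini-Hochberg adjustment at 0.05. The SE was obtained from the log2 fold change and the F statistic (size over root F). List deviations used a prior count of 2. Alternatives were RLE and upper-quartile scaling, other filters, DESeq2 1.42.0, limma-voom (limma 3.58.1), a non-robust fit, the replicate number as a block and each library left out. Libraries of the same number had deviations from their group means that correlated at −0.21, −0.31 and 0.19, and were therefore not taken as pairs. Exon lengths and overlaps came from GENCODE on build GRCm38. The test was checked on simulated counts. Every listed member was described, and from other lists up to 3 genes with the smallest p. Npas2, Clec4f and Folr2 were named besides, to show the spread within their lists. The members and lists were chosen with earlier results of these data known.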

Additional observations from a re-analysis of the deposited data

How the results depend on the processing

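The 27 sterol genes gave 378 values over 14 alternatives, of which 358 kept their sign and their side of the threshold, 16 changed sign and 4 passed the threshold. The 4 were Soat1 (DESeq2, no filter on low counts) and Sqle (DESeq2, without Hete replicate 3). None rose past the threshold in any alternative. Soat1 ran from −1.24 to −0.99 (adjusted p 0.00127 to 0.248) and Sqle from −2.19 to −1.26 (adjusted p 0.0147 to 0.479). Sterol genes past the threshold as lower numbered 1 with no filter, 2 in DESeq2 and 0 to 1 with a library left out, against 0. The changes of sign were all in genes that did not pass in any fit, and their cause was not tested. Lbr was 0.0056 with RLE scaling, 0.018 with no filter and 0.0055 in DESeq2. With each library left out in turn, Lbr ran from −0.18 to 0.17, Pmvk from −0.35 to 0.016, Acat2 from −0.011 to 0.27, Ggps1 from −0.10 to 0.025, Tm7sf2 from −0.12 to 0.16, Ebp from −0.0092 to 0.15, Insig1 from −0.24 to 0.22 and Fdft1 from −0.015 to 0.29. The median of the 27 genes lay between −0.18 and −0.03 throughout.

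Over all genes, 71 were lower and 3 higher in Hete livers. Lower and higher genes numbered 36 and 1 with upper-quartile scaling, 190 and 21 with no filter, 47 and 1 with at least 1 CPM in 3 libraries, 452 and 82 in DESeq2, 45 and 1 in limma-voom, and 20 and 0 with a non-robust fit. With the replicate block, for which the labels give no shared origin, there were 0 and 0. With a library left out, lower genes ran from 0 (without Hete replicate 1 or 2) to 107 (without Hete replicate 3), with 4, 6 and 19 without WT replicate 1, 2 and 3, and higher genes from 0 to 15. Counts were low for Idi1 (37 to 88 per library), Mvd (37 to 79) and Sqle (15 to 115). Intervals cover the spread between these samples only.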

Other observations

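Marker lists of other liver cells were measured beside the sterol genes. Of 10 markers of other leukocytes, all 10 had a negative fold change, with a median log2 fold change of −1.06, and Csf3r, the receptor of a granulocyte growth factor, passed an edgeR adjusted p of 0.05 as lower in Hete livers, as did 0.559% of all tested genes. It measured 4.95, 4.91 and 7.11 CPM in Hete livers and 12.7, 16.4 and 11.3 CPM in WT livers. The 6 endothelial markers had a median of 0.07, the 6 stellate cell markers of −0.39, the 5 cholangiocyte markers of −0.51 and the 8 hepatocyte markers of −0.12, and none of these genes passed. The 7 Kupffer cell markers had a median of −1.22, with 6 fold changes below and 1 (Folr2) above 0, and none passed.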
